A study of Homo sapiens with 22 samples.

Results

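The passage of a cell from G1 into S phase is set by a small group of kinases, and 10 of its genes were followed in MOLM-13 and NB4 cells treated with FP54, a degrader of the m6A demethylase FTO. They are the D-type cyclins CCND2 and CCND3, their kinases CDK4 and CDK6, the E-type cyclins CCNE1 and CCNE2, their kinase CDK2, and the inhibitors CDKN1A (p21), CDKN1B (p27) and CDKN2C (p18). Their rows were taken by gene symbol, and all 10 were found among the 20411 genes of each table. The 10 genes were chosen with earlier results of these data known.

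D-type cyclins carry growth signals to CDK4 and CDK6, which begin to phosphorylate the retinoblastoma protein RB1. E-type cyclins with CDK2 complete that step, the E2F transcription factors are released, and the genes of DNA replication are switched on, CCNE1 and CCNE2 among them. p18 binds CDK4 and CDK6 alone and keeps them from their cyclins, whereas p21 and p27 bind whole cyclin and kinase complexes. In myeloid cells the inhibitors are known to rise as cells stop dividing and mature, and p21 also under stress.

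MOLM-13 and NB4, the latter from acute promyelocytic leukemia, are established human myeloid leukemia cell lines, and both are labelled wild type. Cells received 2 μM FP54, or DMSO as the solvent control, for 48 hours, and for each line 3 poly(A) RNA-seq libraries of either treatment were analysed here. That makes 12 of the 22 samples in the labels. The other 10 samples (m6A-seq and polysome-seq) were not analysed here. Nothing in the labels says that replicates were separate cultures, so the p-values measure the spread between libraries, which may be technical. Values are RPKM, reads scaled to gene length and library size, so that levels of different genes can be set side by side. In bulk RNA, a change in the share of cells in a cell cycle phase and a change in RNA per cell cannot be told apart.

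The libraries held 5836374 to 19206718 reads on genes in MOLM-13 and 10601689 to 22348053 in NB4 cells, and FP54 replicate 2 of MOLM-13 had the fewest. The 10 genes had 89 to 10831 reads per library. FTO mRNA lay between 0.897 and 1.13 RPKM in the 6 MOLM-13 libraries, and in NB4 cells between 2.52 and 2.86 RPKM with DMSO and 1.95 and 2.11 RPKM with FP54. The myeloid genes PTPRC, CD33, SPI1, CEBPA and LYZ were at 7.70 RPKM or more in every group. HOXA9, MEIS1 and FLT3 were higher in MOLM-13 than in NB4 cells, while HOXA10 was lower (6.64 to 8.46 against 12.3 to 14.1 RPKM with DMSO). ELANE, a granule enzyme, was at 0.218 RPKM or less in NB4 and at 122 to 240 RPKM in MOLM-13 cells. MPO, another granule enzyme, went the other way, at 1080 to 2260 RPKM in NB4 cells. In MOLM-13 cells MPO was at 12.8 to 18.1 RPKM with DMSO and 3.29 to 4.64 RPKM with FP54. The epithelial gene EPCAM was at 7.83 to 11.3 RPKM in NB4 cells against at most 0.0474 RPKM in MOLM-13 cells. KRT18, another epithelial gene, was at 10.8 to 12.4 RPKM in NB4 and 4.23 to 8.24 RPKM in MOLM-13 cells. The mean level of 416 olfactory receptor genes was taken as a gauge of background. It was 0.00168 to 0.00372 RPKM in NB4 cells with DMSO and 0.0496 to 0.0549 RPKM with FP54, while the lowest value of any of the 10 genes was 1.48 RPKM. In MOLM-13 cells, DMSO replicate 2 had the lowest DMSO value for 7 of the 10 genes, and FP54 replicate 3 had the highest FP54 value for 7 of the 10.

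The lines started from different levels of the G1 genes. With DMSO, MOLM-13 cells had CDKN1A far above the rest at 207 ± 10.6 RPKM (SD, n = 3), followed by CDKN2C at 31.3 ± 2.27 RPKM (SD, n = 3). CDK4, CDK6, CCNE2, CCND3 and CDK2 came next, between 22.5 and 16.5 RPKM, and in this stretch the ranges of neighbours overlapped. CDKN1B, CCND2 and CCNE1 had the lowest levels, at 13.6, 12.7 and 10.4 RPKM, again with overlapping neighbours. In NB4 cells with DMSO the order began with CDK4 at 71.0 ± 7.53 RPKM (SD, n = 3) and CCND3 at 32.0 ± 1.19 RPKM (SD, n = 3). CDK2 and CCND2 followed at 26.0 and 23.8 RPKM with overlapping ranges, and CCNE1, CDKN2C and CDKN1B lay at 9.51, 7.84 and 5.64 RPKM without overlap between neighbours. CDK6 and CCNE2 overlapped at 3.84 and 3.76 RPKM, and CDKN1A was lowest at 1.99 ± 0.453 RPKM (SD, n = 3). The DMSO level of CDKN1A was thus 104-fold higher in MOLM-13 than in NB4 cells, that of CDK6 5.71-fold, of CCNE2 5.27-fold, of CDKN2C 3.99-fold and of CDKN1B 2.42-fold higher. CDK4, CCND3, CCND2 and CDK2 were higher in NB4 cells, by 3.16-, 1.94-, 1.87- and 1.58-fold. CCNE1 was the gene whose ranges overlapped between the lines. The tables of the lines were made separately, and these ratios were not tested.

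**Figure D1:**
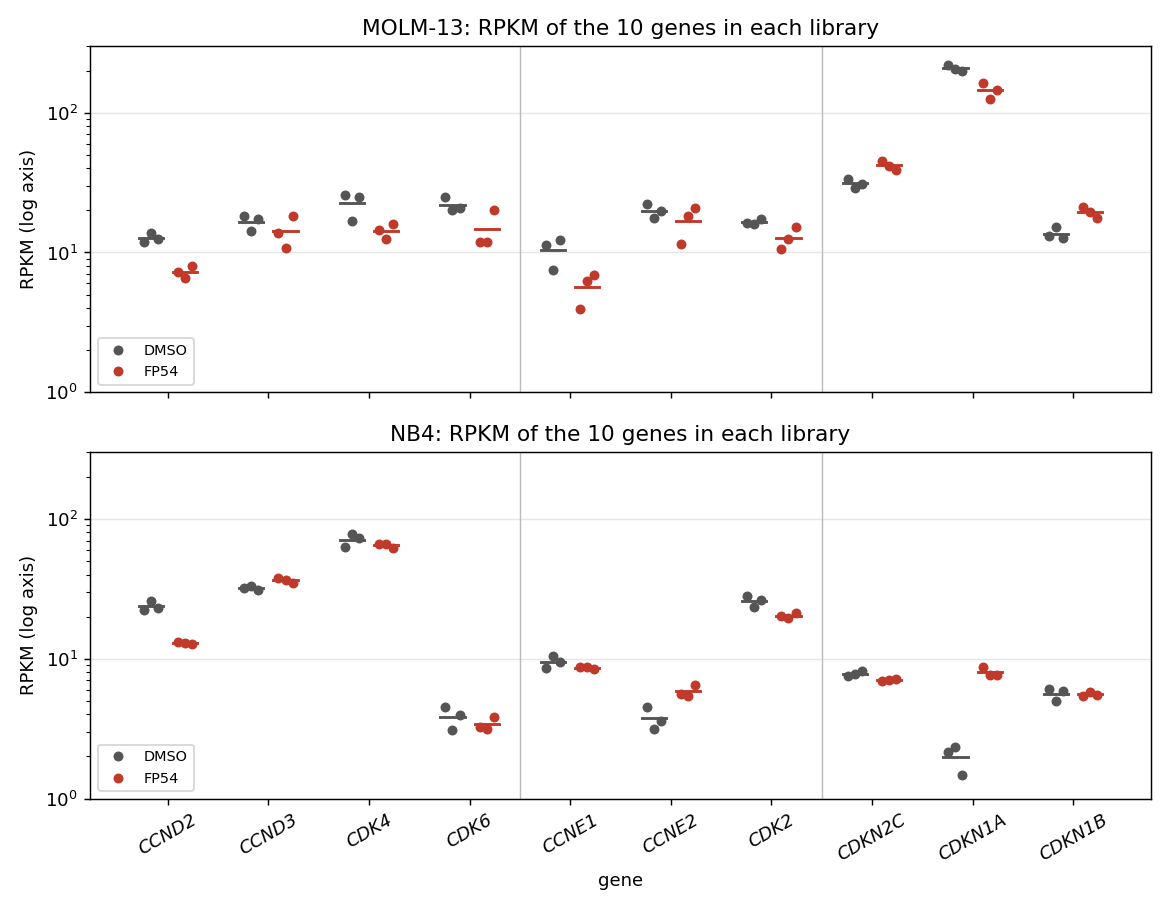
RPKM (log axis) of the 10 genes in each library of MOLM-13 (top) and NB4 cells (bottom), with DMSO in grey and FP54 in red. Points are libraries and lines are means of 3. CDKN1A lies between 124 and 219 RPKM in MOLM-13 and between 1.48 and 8.66 RPKM in NB4 cells, and CCND2 is lower with FP54 in both.

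FP54 was compared with DMSO within each line by limma on log2(RPKM + 0.1), over all genes with a mean of at least 1 RPKM, which all 10 genes passed in both lines. Calls used the cutoff of the study, which asks for an unadjusted p under 0.01 and for a fold change, on the log2 scale, no smaller than 0.5 up or down. In MOLM-13 cells CCND2, CCNE1, CDK4 and CDKN1A fell and CDKN1B rose. These are 4 of 10 genes called lower, beside 9.04% of all 9710 genes tested, and 1 of 10 called higher, beside 9.30%. In either direction, 18.3% of all genes were called. At an adjusted p below 0.05, 6 of the 10 passed, beside 19.2% of all genes, and for 7 of the 10 the DMSO and FP54 libraries did not overlap, beside 37.1%. In NB4 cells CCND2 fell and CDKN1A and CCNE2 rose. That is 1 of 10 called lower beside 10.7% of 9853 genes, 2 of 10 called higher beside 18.6%, and 3 called in all beside 29.3%. An adjusted p below 0.05 was reached by 4 of the 10, beside 51.8%, and 6 of the 10 did not overlap, beside 60.5%, so that in NB4 cells these shares lay near or below those of all genes. The median log2 fold change of the 10 genes was −0.46 in MOLM-13 and −0.13 in NB4 cells, beside 0.00 and 0.07 over all genes tested. The 10 genes were chosen with earlier results known, so these shares and medians describe the set and are no independent support. The split of calls in NB4 cells moved with the scaling: 1050 genes lower and 1834 higher became 1363 lower and 1280 higher after quantile normalization, with a median of −0.03.

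**Figure D2:**
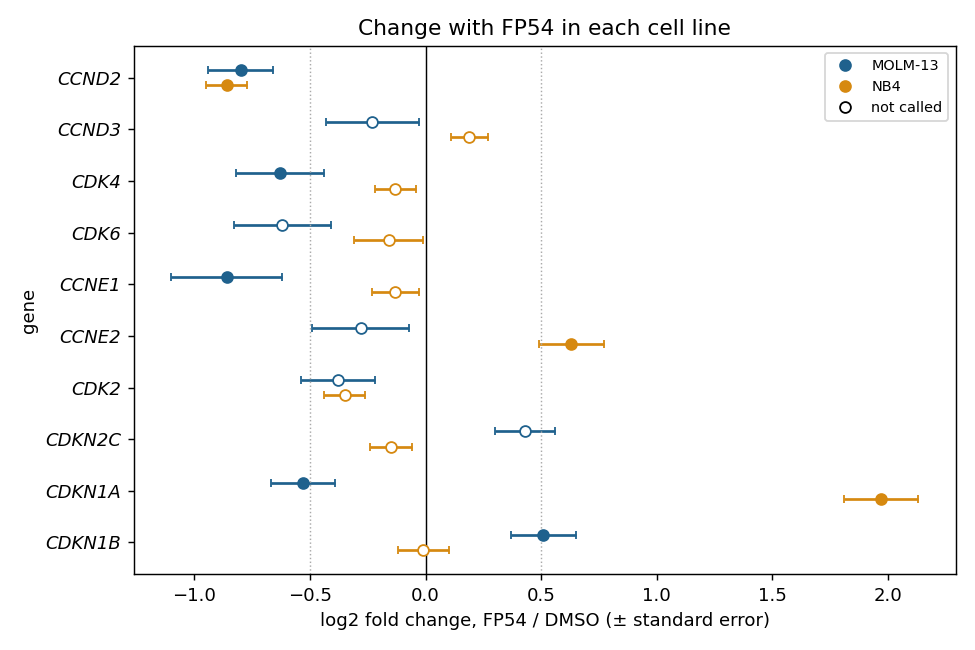
Log2 fold change of each gene with FP54 against DMSO, with its standard error from limma, in MOLM-13 (blue) and NB4 cells (orange). Filled points are called, and the dotted lines mark 0.5 in either direction. CCND2 is the gene called lower in both lines, and CDKN1A is called lower in MOLM-13 and higher in NB4 cells.

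CCND2, on chromosome 12 from 4269771 to 4305353 (hg38, as all positions here), was lower with FP54 in both lines. In MOLM-13 cells it was at 11.9, 13.7 and 12.5 RPKM in DMSO replicates 1 to 3 and at 7.25, 6.57 and 8.01 RPKM in FP54 replicates 1 to 3. In NB4 cells it was at 22.3, 26.0 and 23.1 RPKM with DMSO and at 13.2, 13.0 and 12.8 RPKM with FP54. Every FP54 library lay below every DMSO library of its line. The log2 fold change was −0.80 (standard error, SE, 0.14; limma adjusted p = 0.00711) in MOLM-13 and −0.86 (SE 0.09, limma adjusted p = 2.68e-05) in NB4 cells, and the difference between these effects was −0.06 (SE 0.16, limma adjusted p = 0.836). CCND2 was called lower in both lines under every alternative and with each library left out. In the annotation at hand a coding gene without a symbol overlaps its exons on the same strand, and reads of the pair cannot be told apart.

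CCND3, the other D-type cyclin here (chromosome 6, 41934934 to 42050357), did not pass the cutoff in either line. It was at 18.1, 14.2 and 17.3 RPKM with DMSO and 13.9, 10.7 and 18.4 RPKM with FP54 in MOLM-13 cells, where the groups overlapped. In NB4 cells it lay between 30.9 and 33.3 RPKM with DMSO and between 35.0 and 37.6 RPKM with FP54, without overlap, at a log2 fold change of 0.19 (limma adjusted p = 0.0682). The balance of the D-type cyclins therefore shifted in NB4 cells. CCND2 made up 42.6 ± 1.38% (SD, n = 3) of the summed CCND2 and CCND3 RPKM with DMSO and 26.3 ± 0.375% (SD, n = 3) with FP54. In MOLM-13 cells the share was 43.6 ± 4.91% (SD, n = 3) and 34.3 ± 3.85% (SD, n = 3), and the lowest DMSO share, 39.6%, lay just above the highest FP54 share, 38.1%. With 3 libraries against 3, an exact permutation test cannot give a two-sided p below 0.1, and the shares were not tested. CCND1, the third D-type cyclin and not among the 10, fell from 1.96 ± 0.484 to 0.814 ± 0.160 RPKM (SD, n = 3 each) in MOLM-13 cells, a log2 fold change of −1.16 (limma adjusted p = 0.0127). In NB4 cells CCND1 was at 13.6 ± 0.882 and 9.70 ± 0.842 RPKM (SD, n = 3 each), and its log2 fold change of −0.49 missed the cutoff on size (limma adjusted p = 0.00207).

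CDK4 and CDK6 are alternative partners of the D-type cyclins. CDK4 (chromosome 12, 57747727 to 57756013) was at 25.7, 16.8 and 24.9 RPKM in MOLM-13 cells with DMSO and at 14.6, 12.5 and 16.0 RPKM with FP54. DMSO replicate 2 lay just above the highest FP54 library. The log2 fold change was −0.63 (SE 0.19, limma adjusted p = 0.0416). The call was lost without DMSO replicate 1, DMSO replicate 3, FP54 replicate 1 or FP54 replicate 2 (log2 fold changes of −0.52, −0.54, −0.64 and −0.53), without a filter on low values (limma adjusted p = 0.0788) and without the intensity trend in the variance. In NB4 cells CDK4 was at 62.7 to 77.5 RPKM with DMSO and 61.5 to 66.4 RPKM with FP54, with overlap, and a log2 fold change of −0.13 (limma adjusted p = 0.261) that came to 0.02 after quantile normalization. The exons of CDK4 overlap those of TSPAN31 on the other strand. TSPAN31 itself was at 2.97 ± 0.488 and 4.47 ± 1.07 RPKM (SD, n = 3 each) in MOLM-13 cells, and the sources used here do not state whether counting used the strand.

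CDK6 (chromosome 7, 92604921 to 92836573) was at 24.9, 20.1 and 20.8 RPKM in MOLM-13 cells with DMSO. With FP54 it was at 11.9 RPKM in replicates 1 and 2 and at 20.3 RPKM in replicate 3, which lay within the DMSO range. Its log2 fold change of −0.62 (SE 0.21, limma adjusted p = 0.0643) did not pass, and it was −0.87 (limma adjusted p = 0.0105) without FP54 replicate 3. CDK6 was also called lower after median-ratio scaling and on recovered reads (log2 fold changes of −0.63 and −0.61). In NB4 cells CDK6 was at 3.10 to 4.49 RPKM with DMSO and 3.12 to 3.83 RPKM with FP54, a log2 fold change of −0.16 (limma adjusted p = 0.387). The share of CDK6 in the summed RPKM of both kinases was 49.7 ± 4.55% with DMSO and 49.9 ± 5.50% with FP54 in MOLM-13 cells, and 5.22 ± 1.42% and 5.03 ± 0.726% in NB4 cells (SD, n = 3 each). The CDK6 share of every MOLM-13 library lay above that of every NB4 library, and the treatments overlapped within each line.

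**Figure D3:**
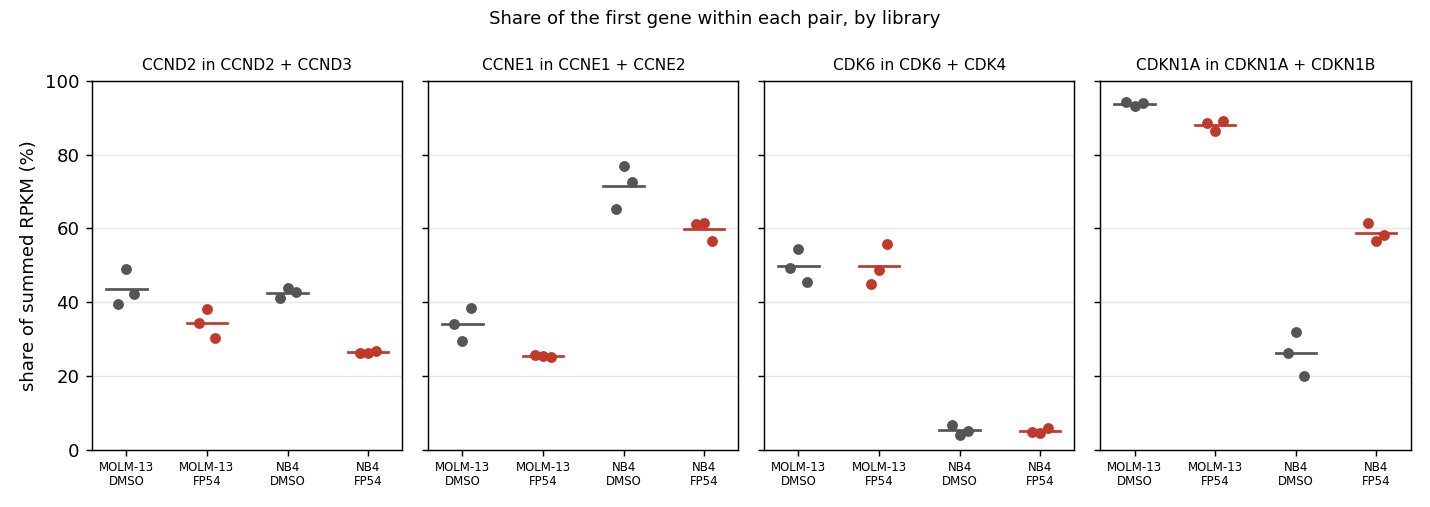
Share (%) of the first gene in the summed RPKM of each of 4 pairs, by library, with DMSO in grey and FP54 in red and lines at the means of 3. The CDK6 share is near 50% in MOLM-13 and near 5% in NB4 cells under both treatments, and the CDKN1A share of CDKN1A and CDKN1B rises from 26.1% to 58.8% in NB4 cells.

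The promoter of CDK4 is shown for its 3 E-boxes, the site bound by MYC and its partners, more than any other window of the 10 genes held. Promoter windows, from 250 bases before to 50 bases after an annotated start, were taken from RefSeq (GRCh38.p14) and covered 7 of the 10 genes with 12 windows. CCND2, CCNE2 and CDK2 were not covered. The CDK4 window, chr12:57752261-57752560 on the minus strand, is printed 5′ to 3′ with each E-box (CACGTG, the same on both strands) in capitals. These matches begin at bases −216, −196 and −101 from the start.

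CDK4: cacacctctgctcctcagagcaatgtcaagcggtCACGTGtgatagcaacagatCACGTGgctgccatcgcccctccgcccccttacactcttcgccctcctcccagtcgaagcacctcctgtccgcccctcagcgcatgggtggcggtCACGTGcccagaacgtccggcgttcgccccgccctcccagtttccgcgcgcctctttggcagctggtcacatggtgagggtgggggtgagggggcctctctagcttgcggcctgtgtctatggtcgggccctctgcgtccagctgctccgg

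At least 1 E-box was in 7.26% of the 35116 RefSeq windows and at least 3 were in 0.094%. CDK6 had 1 in one of its windows and CDKN2C had 1 in each of 2 windows. MYC was at 36.8 ± 21.5 RPKM with DMSO and 12.1 ± 6.44 RPKM with FP54 in MOLM-13 cells (SD, n = 3 each), a log2 fold change of −1.52 (limma adjusted p = 0.0567) that was not called. MYC fell in NB4 cells from 133 ± 8.85 to 69.6 ± 5.55 RPKM (SD, n = 3 each), a log2 fold change of −0.94 (limma adjusted p = 1.62e-05), while CDK4 did not pass there. A match of letters is no evidence of binding, and the part of MYC in the CDK4 level was not tested.

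The E-type cyclins were called in one line each, CCNE1 in MOLM-13 and CCNE2 in NB4 cells. CCNE1 (chromosome 19, 29811991 to 29824312) was at 11.4, 7.43 and 12.3 RPKM in MOLM-13 cells with DMSO and at 3.96, 6.20 and 6.93 RPKM with FP54. The lowest DMSO library, replicate 2, was again close to the FP54 libraries. The log2 fold change was −0.86 (SE 0.24, limma adjusted p = 0.0362), and the call was lost without DMSO replicate 1, DMSO replicate 3 or FP54 replicate 1 (−0.78, −0.72 and −0.62) and without a filter on low values (limma adjusted p = 0.0836). FP54 replicate 2 held 89 reads of CCNE1, the fewest of any of the 10 genes. In NB4 cells CCNE1 lay between 8.60 and 10.4 RPKM with DMSO and between 8.49 and 8.78 RPKM with FP54, at a log2 fold change of −0.13 (limma adjusted p = 0.273).

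CCNE2 (chromosome 8, 94879770 to 94896678) was at 4.55, 3.13 and 3.61 RPKM in NB4 cells with DMSO and at 5.56, 5.45 and 6.49 RPKM with FP54. All FP54 libraries lay above all DMSO libraries, and the log2 fold change was 0.63 (SE 0.14, limma adjusted p = 0.00375). After quantile normalization it was 0.45, under the cutoff on size. In MOLM-13 cells CCNE2 was at 22.1, 17.7 and 19.7 RPKM with DMSO and at 11.4, 18.1 and 20.8 RPKM with FP54, so that one FP54 library stood low and the groups overlapped (log2 fold change −0.28, limma adjusted p = 0.374). CCNE2 shares exon sequence with INTS8 on the other strand, which was at 7.46 ± 0.443 and 6.22 ± 0.454 RPKM in NB4 cells (SD, n = 3 each). The share of CCNE1 in the summed E-type cyclin RPKM was 34.0 ± 4.44% with DMSO and 25.4 ± 0.350% with FP54 in MOLM-13 cells, and 71.6 ± 5.79% and 59.8 ± 2.68% in NB4 cells (SD, n = 3 each). The share was lower with FP54 in both lines without overlap. CCNE1 was the cyclin called lower in MOLM-13 and CCNE2 the one called higher in NB4 cells.

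CDK2 (chromosome 12, 55966781 to 55972789) was lower by a similar amount in both lines and missed the cutoff in both. It was at 16.1, 16.0 and 17.4 RPKM with DMSO and 10.6, 12.4 and 15.3 RPKM with FP54 in MOLM-13 cells (log2 fold change −0.38, limma adjusted p = 0.116). In NB4 cells it was at 28.3, 23.6 and 26.2 RPKM with DMSO and 20.2, 19.5 and 21.3 RPKM with FP54 (log2 fold change −0.35, limma adjusted p = 0.00869). The groups did not overlap in either line, and the NB4 value missed the cutoff on size alone. Its exons overlap those of PMEL on the other strand, which was at 0.224 RPKM or less in the mean of every group. Without FP54 replicate 3, CDK2 was called lower in MOLM-13 cells at a log2 fold change of −0.52.

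CDKN1A moved in opposite directions in the lines. CDKN1A (chromosome 6, 36676460 to 36687337), which codes for p21, was at 219, 206 and 198 RPKM in MOLM-13 cells with DMSO and at 164, 124 and 145 RPKM with FP54. In NB4 cells it was at 2.17, 2.33 and 1.48 RPKM with DMSO and at 8.66, 7.63 and 7.66 RPKM with FP54, from 99 to 149 reads per DMSO library and 266 to 300 reads per FP54 library. The groups did not overlap in either line, and the directions were opposite. The log2 fold change was −0.53 (SE 0.14, limma adjusted p = 0.0295) in MOLM-13 and 1.97 (SE 0.16, limma adjusted p = 5.36e-06) in NB4 cells, where the mean with FP54 was 4.01-fold that with DMSO. The difference of 2.50 between the effects (SE 0.22, limma adjusted p = 2.93e-06) stood in all alternatives that tested it and with each library left out. The fall in MOLM-13 cells sat at the edge of the cutoff and was called without FP54 replicate 1 but lost with any other library left out, at log2 fold changes from −0.57 to −0.43. Even after the rise, the level of CDKN1A in NB4 cells was 18.1-fold below that in MOLM-13 cells with FP54. An exon of the noncoding gene DINOL overlaps CDKN1A on the other strand.

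The start of CDKN1A is shown for its GC boxes (GGGCGG or CCGCCC), the site of SP1 and related factors. The window is chr6:36678464-36678763 on the plus strand, with the 4 matches in capitals. They begin at bases −104, −94, −45 and −40, and the last 2 share a base.

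CDKN1A: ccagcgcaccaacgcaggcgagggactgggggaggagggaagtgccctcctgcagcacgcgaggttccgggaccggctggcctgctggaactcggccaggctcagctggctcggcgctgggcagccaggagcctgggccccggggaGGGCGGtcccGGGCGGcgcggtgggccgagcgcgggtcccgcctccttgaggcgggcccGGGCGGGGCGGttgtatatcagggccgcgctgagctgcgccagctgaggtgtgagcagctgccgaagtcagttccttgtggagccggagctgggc

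At least 4 GC boxes were in 9.06% of all RefSeq windows. CCNE1 had 7 in its window, and one window each of CDKN2C and CCND3 had 6 and 5. The window of CDKN1A held no E-box and no TGATGNAA, the core of the element read by ATF4, on either strand. SP1 was not called in either line, at log2 fold changes of 0.35 and 0.43 in MOLM-13 and NB4 cells (limma adjusted p = 0.162 and 0.0118). In NB4 cells it missed the cutoff on size alone, and the groups did not overlap.

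CDKN1B (chromosome 12, 12685498 to 12722369), which codes for p27, rose in MOLM-13 cells from 13.2, 15.2 and 12.6 RPKM with DMSO to 21.3, 19.4 and 17.7 RPKM with FP54. Every FP54 library lay above every DMSO library, and the log2 fold change of 0.51 (SE 0.14, limma adjusted p = 0.0340) was just past the cutoff. The call was lost when DMSO replicate 1, DMSO replicate 3, FP54 replicate 1 or FP54 replicate 2 was left out (0.48, 0.45, 0.44 and 0.51), with a pseudocount of 1 (0.48) and after median-ratio scaling (0.50). In NB4 cells CDKN1B was at 6.08, 4.97 and 5.88 RPKM with DMSO and 5.41, 5.82 and 5.53 RPKM with FP54, with overlap and a log2 fold change of −0.01 (limma adjusted p = 0.952). The difference between the effects, −0.52, had an adjusted p of 0.0611 from limma.

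CDKN2C (chromosome 1, 50960745 to 50974634), the p18 inhibitor of CDK4 and CDK6, was at 33.6, 29.1 and 31.1 RPKM in MOLM-13 cells with DMSO and at 45.1, 41.8 and 39.2 RPKM with FP54. The groups did not overlap, and the log2 fold change of 0.43 (SE 0.13, limma adjusted p = 0.0464) missed the cutoff on size. In NB4 cells it was at 7.48, 7.84 and 8.22 RPKM with DMSO and 6.94, 7.03 and 7.20 RPKM with FP54, again without overlap but in the other direction, at a log2 fold change of −0.15 (limma adjusted p = 0.187). The effects differed by −0.58 between the lines (SE 0.15, limma adjusted p = 0.0167), which did not hold without DMSO replicate 3, FP54 replicate 1 or FP54 replicate 2 of both lines (adjusted p = 0.102, 0.0928 and 0.0564 from limma). CDKN1A made up most of the summed CDKN1A and CDKN1B RPKM in MOLM-13 cells, at 93.8 ± 0.608% with DMSO and 88.0 ± 1.36% with FP54 (SD, n = 3 each). In NB4 cells its share went from 26.1 ± 5.93% to 58.8 ± 2.48% (SD, n = 3 each), so that CDKN1B was the more abundant of the pair with DMSO and CDKN1A with FP54.

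Across the lines, the FP54 effect differed at an adjusted p below 0.05 for CDKN1A, CCNE2 and CDKN2C, 3 of the 10 genes beside 14.2% of the 8849 genes tested in both. For CCNE2 the difference was 0.91 (SE 0.28, limma adjusted p = 0.0404). It was lost after quantile normalization (limma adjusted p = 0.0700) and with any library left out of both lines except FP54 replicate 3 (adjusted p from 0.0590 to 0.131). CCNE1 and CDK4, called in MOLM-13 cells alone, were not shown to differ, at differences of 0.73 and 0.49 (adjusted p = 0.110 and 0.153 from limma). Without DMSO replicate 2 of both lines these were 1.01 and 0.76 (adjusted p = 0.0262 and 0.0122), and CDKN1B also passed (−0.68, adjusted p = 0.0131). After quantile normalization CDK4 and CDKN1B passed (adjusted p = 0.0405 and 0.0109), and CDKN1B did so without a filter and after median-ratio scaling (adjusted p = 0.0339 and 0.0415).

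Other genes of the G1 pathway were counted in lists written from general knowledge, but with earlier results of these data known. Their counts are therefore no independent support. Counts at an unadjusted limma p below 0.05 are given for some lists, and no share of all genes was taken at that threshold. Of 11 tested RB and E2F family genes, 4 were called lower and none higher in MOLM-13 cells, beside 9.04% and 9.30% of all genes. At an unadjusted limma p below 0.05, 5 of them were lower and 0 higher. The median log2 fold change was −0.46 beside 0.00 for all genes. E2F1, the best known activator of S phase genes, fell from 8.67 ± 2.39 to 4.26 ± 1.09 RPKM (SD, n = 3 each, limma adjusted p = 0.0216). E2F4, TFDP1 and E2F3 had log2 fold changes of −0.89, −0.76 and −0.57. In NB4 cells 1 of the 11 was called lower and 1 higher, beside 10.7% and 18.6% of all genes, with a median of 0.02 beside 0.07. RB1, the substrate of the G1 kinases, rose there from 13.9 ± 3.40 to 20.6 ± 2.04 RPKM (SD, n = 3 each, limma adjusted p = 0.0101), and E2F4 had a log2 fold change of −0.52.

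Of 18 E2F targets that act at S phase entry, 6 were called lower in MOLM-13 and 4 in NB4 cells, and none higher in either, beside 9.04% and 10.7% of all genes called lower. The medians were −0.57 and −0.40, beside 0.00 and 0.07 for all genes. An adjusted p below 0.05 was reached by 6 of the 18 in MOLM-13 cells, beside 19.2% of all genes. In NB4 cells it was reached by 13, beside 51.8%. At an unadjusted limma p below 0.05, 14 were lower and 0 higher in MOLM-13 cells, and 12 lower and 3 higher in NB4 cells. The share of all genes at that looser threshold was not counted. UHRF1, a partner of the maintenance DNA methyltransferase, was called lower in both (−1.33 and −0.56), as was MCM7, a subunit of the replicative helicase (−0.58 and −0.80). MCM4 and the polymerase clamp PCNA were called lower in MOLM-13 cells (−0.71 and −0.61) and MCM5 in NB4 cells (−0.60). MYBL2 was called lower in MOLM-13 cells (−0.68). CCNA2, the cyclin that follows the E-type cyclins on CDK2, fell from 65.9 ± 5.25 to 44.1 ± 2.74 RPKM (SD, n = 3 each) in NB4 cells and was at 21.0 ± 3.49 and 14.3 ± 3.68 RPKM (SD, n = 3 each) in MOLM-13 cells, where it did not pass (limma adjusted p = 0.0695).

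Among 9 genes that activate or restrain the kinases, 2 were called lower in each line and none higher. Of all genes, 9.04% and 10.7% were called lower in MOLM-13 and NB4 cells. At an unadjusted limma p below 0.05, 3 and 2 of the 9 were lower and 0 higher. CDC25A, the phosphatase that activates CDK2, was called in both, at log2 fold changes of −1.29 in MOLM-13 and −0.54 in NB4 cells. The second was CCNH, a subunit of the CDK-activating kinase, in MOLM-13 cells (−0.55) and CDC37, a chaperone partner of CDK4, in NB4 cells (−0.51). Of 13 tested genes of cyclin and inhibitor turnover, none was called in MOLM-13 cells, beside 18.3% of all genes. An adjusted p below 0.05 was reached there by 1 of the 13, beside 19.2% of all genes. At an unadjusted limma p below 0.05, 3 were lower and 1 higher. CKS2 alone was called lower in NB4 cells (−0.82), beside 10.7% of all genes. In NB4 cells 4 of the 13 reached an adjusted p below 0.05, beside 51.8% of all genes. There 5 were lower and 2 higher at an unadjusted limma p below 0.05. SKP2, which marks p27 for destruction, was not called in either line, at log2 fold changes of 0.26 and −0.35 (limma adjusted p = 0.389 and 0.0441).

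**Figure D4:**
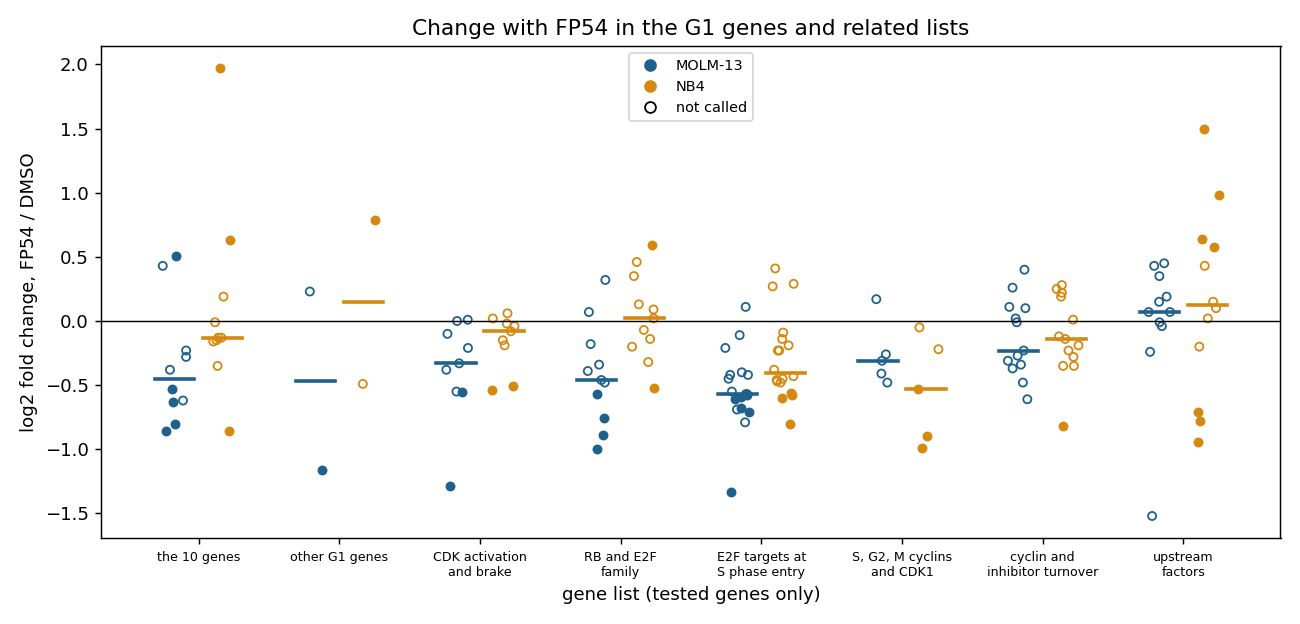
Log2 fold change with FP54 of every tested gene of the 10 and of 7 related lists, in MOLM-13 (blue) and NB4 cells (orange), with called genes filled and a line at each list's median. The E2F targets lie mostly below 0 in both lines (medians −0.57 and −0.40), while the RB and E2F family has medians of −0.46 in MOLM-13 and 0.02 in NB4 cells.

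The genes whose pattern was most like that of each inhibitor were sought by Pearson's r of log2(RPKM + 0.1) over the 12 libraries, after each line's mean was subtracted, among the 8849 genes. For CDKN1A these were SESN2, PPARD and PLEKHG2 (r of 0.99, 0.98 and 0.98), for CDKN1B ZNF225, CRLF3 and TARS3 (0.97, 0.96 and 0.96), and for CDKN2C ACAA2, S100A4 and CTSH (0.96, 0.95 and 0.95). With each line's mean removed, r mostly follows the change with FP54 within each line. SESN2, a stress-induced inhibitor of mTORC1 signalling, had log2 fold changes of −0.48 and 2.15 in MOLM-13 and NB4 cells, beside −0.53 and 1.97 for CDKN1A. SESN2 was picked for its likeness over these same libraries, so a like pattern follows from that choice. The size of the changes does not enter r. PPARD and PLEKHG2, picked in the same way, had −0.20 and −0.25 in MOLM-13 and 0.94 and 1.57 in NB4 cells.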

How the data were processed

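Poly(A) RNA was sequenced from MOLM-13 and NB4 cells. Per the paper's methods and the submitters' processing notes, the authors trimmed reads with Cutadapt 4.8, removed duplicates with Clumpify, aligned to hg38 with STAR 2.7.11b, and counted protein-coding GENCODE V42 genes with featureCounts 2.0.3. The deposited values are RPKM computed by the authors, who do not state the length and total used. The cell line of each table rests on the table's name.

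RPKM times the exon length of GENCODE V44 gave whole reads (within 0.1) for 98.9 to 99.3% of values under 60 reads. Genes averaging 1 RPKM or more were fitted as log2(RPKM + 0.1) with limma 3.58.1 in R 4.3.3 (eBayes with trend) within each line, and as an interaction over 12 libraries, with Benjamini-Hochberg adjustment over all genes tested. The call (p below 0.01, log2 fold change of at least 0.5) is the study's cutoff. Fold changes are on the log2(RPKM + 0.1) scale, which understates changes of low genes. Tables were read with pandas 2.3.3. The fit was tested on simulated data.

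Alternatives were pseudocounts of 1 and 0.01, no filter, a filter at 5 RPKM, median-ratio scaling, quantile normalization, a replicate block, eBayes without trend or with robust estimation, limma-voom on recovered reads, and leaving out each library. Subtraction of the olfactory receptor level was chosen after seeing the data. Named genes are the 10 members, CDC25A, SKP2, RB1, E2F1, CCNA2 and CCND1, the 4 called genes of largest change per list and line, and the 3 most like each inhibitor. Genes that overlap members, marker genes, FTO, SP1, CCNF, CDK1, CDT1, SMAD3 and the low-level inhibitors were named after their values were seen. One gene and a list built on it are not reported here. The members and lists were chosen with earlier results of these data known.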

Additional observations from a re-analysis of the deposited data

Results flagged for a closer look

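Of the genes named by rule and tested in both lines, 10 had an FP54 effect that differed at an adjusted p below 0.05 in the limma interaction. Values are the log2 difference, NB4 minus MOLM-13. Of all 8849 genes tested in both lines, 14.2% passed. Most list genes were named for a large called change in a line, so the 10 cannot be weighed against that share. Outside the rule, the listed genes CDT1 and SMAD3 also passed (0.71 and 0.57, limma adjusted p = 0.0179 and 0.0474). Among the 10 G1 genes those named by rule were CDKN1A (2.50), CCNE2 (0.91) and CDKN2C (−0.58). In the RB and E2F family they were E2F1 (1.09) and RB1 (0.93), and among the E2F targets MYBL2 (0.54). Among the upstream factors they were CEBPB (1.31) and CEBPE (−1.21), and among the later cyclins CCNB1 (−1.07) and CCNA1 (−0.68). Groups of 3 libraries are too small for a test of single outlying libraries.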

How the results depend on the processing

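In MOLM-13 cells 4 G1 genes were called lower and 1 higher. Called lower were 2 without a filter on low values, and between 1 (without DMSO replicate 1 or DMSO replicate 3) and 5 (without FP54 replicate 3) with a library left out. Without FP54 replicate 1 or FP54 replicate 2 there were 2. Called higher were 0 with a pseudocount of 1, after median-ratio scaling or with the replicate block, and 0 to 1 with a library left out. In NB4 cells 1 was called lower throughout, and the 2 called higher became 0 with a filter at 5 RPKM, which removes CDKN1A and CCNE2 from the test, and 1 after quantile normalization. The 3 differences between the lines became 1 with that filter, and with a library left out of both lines 1 (DMSO replicate 3, FP54 replicate 1 or FP54 replicate 2) to 5 (DMSO replicate 2). With the replicate number as a block, 4 genes were lower and 0 higher in MOLM-13, 1 lower and 2 higher in NB4 cells, and 2 differed between the lines. The call of CDKN1B in MOLM-13 cells (limma adjusted p = 0.0664) and the difference of CCNE2 (limma adjusted p = 0.0748) were those lost with the block. The deviations of same-numbered libraries correlated at −0.26, −0.13 and −0.06 in MOLM-13 and at −0.14, 0.07 and 0.12 in NB4 cells, so that the numbers were not taken as pairs. In MOLM-13 cells no library correlated best with its own number. DMSO replicates 1, 2 and 3 correlated best with FP54 replicates 3, 1 and 2, at 0.59, 0.49 and 0.47. No fit took these as pairs, and the cause was not tested. Subtracting the olfactory receptor level changed none of the calls of the 10 genes. No called value changed direction under any setting.

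Over all genes, 878 lower and 903 higher in MOLM-13 cells became 545 and 694 when DMSO replicate 1 was left out, 462 and 593 for DMSO replicate 3, 503 and 540 for FP54 replicate 1, and 560 and 509 under a filter at 5 RPKM. In NB4 cells 1050 lower and 1834 higher became 1092 and 4967 without a filter, 838 and 789 with a filter at 5 RPKM, and 1363 and 1280 after quantile normalization. Without a filter the median log2 fold change in NB4 cells was 0.24. The cause of these shifts was not tested. The lowest depth, in FP54 replicate 2 of MOLM-13 cells, limits the genes with few reads, CCNE1 above all.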

Other observations

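Of 5 cyclins and kinases of S, G2 and M phase, 3 were called lower in NB4 cells, beside 10.7% of all genes. These were CCNA1, CCNB1 and CCNB2, at log2 fold changes of −0.99, −0.90 and −0.53, and CCNB1, the mitotic cyclin, fell from 104 ± 6.39 to 55.4 ± 2.38 RPKM (SD, n = 3 each, limma adjusted p = 1.19e-05). In MOLM-13 cells none of the 5 was called (beside 18.3% of all genes, and with 1 lower and 0 higher at an unadjusted limma p below 0.05), and CCNB1 was at 12.7 ± 0.869 and 14.4 ± 1.74 RPKM (SD, n = 3 each). CCNB2 had a log2 fold change of −0.48 there (limma adjusted p = 0.0489), the one gene of the 5 past an adjusted p of 0.05. The others of the 5, CCNF and CDK1, had log2 fold changes of −0.22 and −0.05 in NB4 cells (limma adjusted p = 0.0734 and 0.716).

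Other inhibitors of the G1 kinases differed in level from one another. CDKN2D (p19) rose in NB4 cells from 11.2 ± 2.20 to 19.2 ± 1.19 RPKM (SD, n = 3 each), a log2 fold change of 0.79 (limma adjusted p = 0.000537), and was at 26.1 ± 3.26 and 30.4 ± 1.59 RPKM (SD, n = 3 each) in MOLM-13 cells without passing. CDKN2A and CDKN2B were listed at 0 in all 6 MOLM-13 libraries and in NB4 cells with DMSO. With FP54 their means in NB4 cells were 0.0610 and 0.00786 RPKM. CDKN1C (p57) was under the filter in both lines, with means of 0.345 RPKM with DMSO and 1.10 RPKM with FP54 in NB4 cells. These rest on 18 to 39 reads per library. In MOLM-13 cells its means were 0.375 and 1.01 RPKM, with FP54 libraries from 0.208 to 2.29 RPKM.

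Of 12 transcription factors upstream of the inhibitors tested in NB4 cells, 3 were called lower and 4 higher, beside 10.7% and 18.6% of all genes. Of 11 tested in MOLM-13 cells 0 were called, beside 18.3% of all genes in either direction, with 1 lower and 2 higher at an unadjusted limma p below 0.05. CEBPB, KLF6 and CEBPE had log2 fold changes of 1.50, 0.98 and −0.78 in NB4 cells, beside 0.19, 0.45 and 0.43 in MOLM-13 cells.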
